A study of Rattus norvegicus with 45 samples.

Results

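Gene expression in the dentate gyrus (DG) was compared between rats of 28 months and rats of 18 months that had been fed ad libitum. The old rats are the 6 DG arrays labelled ALO_GP and ALO_PP (28 months, good and poor behavioural performers, 3 animals each), and the middle-aged rats are the 3 DG arrays labelled ALMA (18 months, with no performance class). These 9 arrays were taken by region, age and diet label out of 45 arrays, 15 for each of 3 hippocampal regions. All animals were male F344xBN rats, a cross of the Fischer 344 and Brown Norway strains, from a National Institute on Aging colony. Which behavioural test separated good from poor performers was not stated in the labels. Each array is an Affymetrix RAE 230 2.0 chip, on which a probe set of short oligonucleotides reads 1 transcript.

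The dentate gyrus receives the main cortical input of the hippocampus. Its granule cells, a dense layer of small glutamatergic neurons, send mossy fibres to the mossy cells of the hilus and to CA3. It is 1 of the few sites of the adult mammalian brain where neurons are still born, and that birth slows with age. The piece studied here was cut by razor blade from the hippocampus, so it also held hilar neurons, interneurons, glia, vessels and whatever clung to the surface. In such bulk tissue fewer cells of a type and less RNA per cell cannot be told apart.

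Genes were read by the brightest probe set that carries 1 gene symbol, and 9885 genes lay above the filter on dim signals. The authors' dChip signal, a model-based expression value, was tested as log2(signal + 16) with limma, old minus middle-aged, and a gene passed at a two-sided p under 0.05 after Benjamini-Hochberg adjustment over all 18625 probe sets kept. "Rose" and "fell" below mean past that threshold. Every test was repeated on the second signal the authors deposited for the same arrays, called the value table, and "in both signals" means past the threshold in each with the same direction. Differences are on the log2 scale, given ± SE.

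Before any result, 1 old array stood apart, and a technical control ran with age. The array of ALO_GP replicate 1 had a summed signal of 48296 over the 13 tested meningeal and fibroblast markers, against at most 12466 on any other old array, and 42981 over 17 endothelial and mural markers, against at most 15426. Its granule cell sum was the lowest, at 12890. Over 3 blood markers ALO_GP replicate 1 and ALO_PP replicate 1 summed to 11949 and 6454, against 1409 to 2815 on the other 7 arrays. Among middle-aged arrays ALMA replicate 2 was high in meningeal markers (22831, against 7291 and 7592 on the other 2), in endothelial and mural markers (22481, against 11490 and 11417) and in the choroid plexus transcript Ttr, which read 5678, 587 and 491 in ALO_GP rats and 166, 203 and 311 in ALO_PP rats, against 1023, 6156 and 214 in ALMA rats. The dap poly-A control, a bacterial RNA added before labelling, read 815 to 1114 on old arrays and 2660 to 2832 on middle-aged arrays, while bioB, a control added at hybridisation, overlapped (297 to 423 on old arrays and 317 to 352 on middle-aged arrays). Age and this difference in handling cannot be told apart. The beta-actin ratio of 3′ to 5′ probe sets, which grows as RNA is degraded or copied short, was 7.15 to 9.0 on old arrays and 10.2 to 10.9 on middle-aged arrays, without overlap. The same ratio for GAPDH was 1.78 to 2.06 on old arrays and 2.01 to 2.07 on middle-aged arrays, with overlap. The part of these ratios in the results was not tested. Present calls covered 61.5% to 65.5% of probe sets on old arrays and 61.0% to 62.9% on middle-aged arrays.

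Markers of granule cells and of CA1 cells were both read in the dissected piece. Dsp, a desmosomal protein of granule cells, had a median signal of 1085 over the 9 DG arrays, against 434 in CA1 and 226 in CA3. Fibcd1 and Wfs1, which mark CA1 pyramidal cells, were present on all 9 arrays. Fibcd1 read 350.2 to 513 in old rats, against 262 to 624 in middle-aged rats, and Wfs1 read 1384 to 5322 in old rats, against 1677 to 5713 in middle-aged rats, with the 2 age groups overlapping. Prox1 and Tdo2, further granule cell markers, were near the floor of the array (at most 28.4 and 34.3) and could not be tested. Over the 10 granule cell markers tested the summed signal was 12890 to 20108 in old rats, against 18106 to 20373 in middle-aged rats, and 0 of 10 tested members passed by limma, with 0 at an unadjusted p under 0.05 (median difference -0.14, or -0.02 without ALO_GP replicate 1). For the interneuron markers 0 of 17 tested members passed by limma, with 3 at an unadjusted p under 0.05, and of the CA1 and CA3 pyramidal markers 0 of 8 and 0 of 11 passed in dChip signals (limma, with 0 and 1 at an unadjusted p under 0.05).

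More genes rose than fell in the old dentate gyrus. Of 9885 genes, 989 rose (10.0%) and 175 fell (1.77%) in dChip signals, while the value table gave 600 higher (6.07%) and 151 lower (1.53%). In both signals 395 genes rose (4.00%) and 23 fell (0.233%), and these shares are the background for each gene list below. Old and middle-aged arrays did not overlap in dChip signals for 22.1% of genes. The median difference over all genes was 0.07 (dChip) and 0.04 (value table). Counted over probe sets, 1917 passed in dChip signals (10.3%, with 1527 higher and 390 lower), 1223 by the other signal (6.57%, with 938 higher and 285 lower) and 662 in both (605 higher and 57 lower). With arrays scaled by quantiles the share of dChip calls that were higher was 63.7%, against 79.7% without this scaling. Leaving out 1 ALMA array at a time lowered the dChip count to 690 (replicate 1), 842 (replicate 2) or 1115 (replicate 3) probe sets, and without replicate 1 of ALO_GP it was 2252. Counted over genes, 1156 of 9885 rose in dChip signals without replicate 1 of ALO_GP, with a median difference of 0.06. The count in both signals was 160, 193 and 294 without the same 3 ALMA arrays in turn, 396 without replicate 3 of ALO_GP and 887 without replicate 1 of ALO_GP.

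The 2 signals differed most for decreases. Of the 390 probe sets that fell in dChip signals, 57 fell in the value table too (median differences -0.50 and -0.16), and of the 104 among them lower by more than 2-fold, 5 did. Of the 1527 that rose, 605 rose in the value table (median differences 0.44 and 0.36), and of the 74 higher by more than 2-fold, 56 did. Among genes past the threshold in both signals, 14 differed by more than 2-fold in each signal, 13 of them higher. The single decrease was Cutal, named after its values were seen, whose probe set was present on no middle-aged array and 1 old array. It read 125 to 198 in old rats, against 604 to 961 in middle-aged rats in dChip signals.

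**Figure D1:**
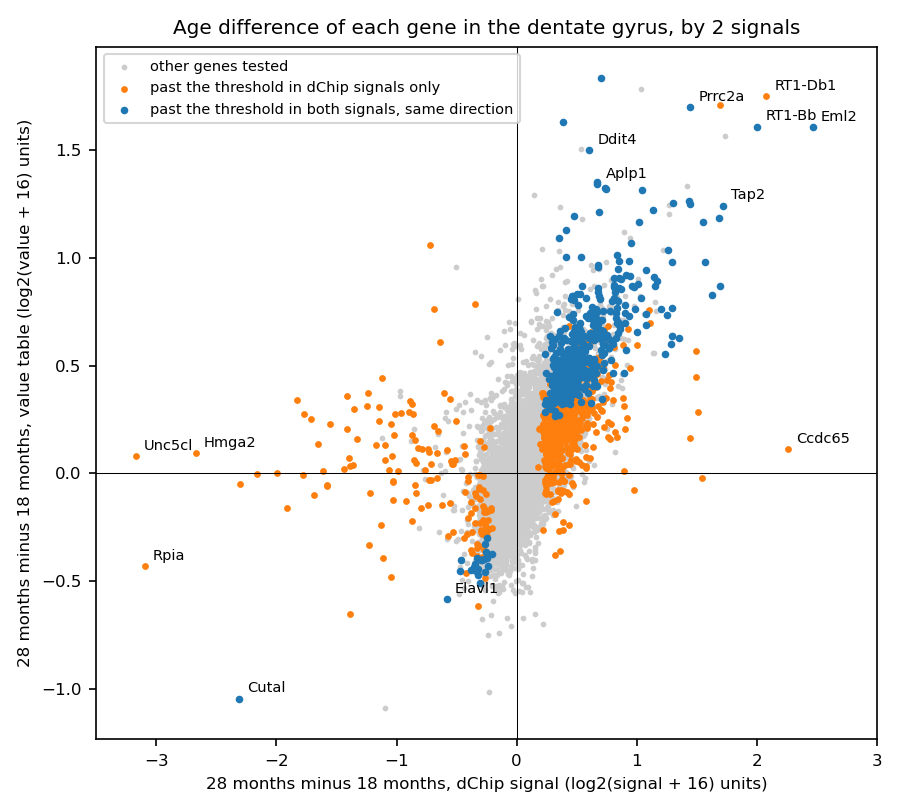
Each point is 1 of 9885 genes, with the age difference in dChip signals on the horizontal axis and in the value table on the vertical axis (log2 units). Genes past the threshold in both signals (blue) lie mostly at the upper right, while many large dChip decreases (orange, left) sit near 0 on the vertical axis, Cutal being an exception.

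Genes that present antigen gave some of the largest increases. MHC class II molecules carry peptides of engulfed proteins to the surface of microglia and other phagocytes, class I molecules carry peptides of the cell's own proteins, and TAP transporters load the class I pathway. RT1-Bb, a class II beta chain, read 2155, 465 and 538 in ALO_GP rats and 1625, 900.4 and 619 in ALO_PP rats, against 275, 281 and 117 in ALMA rats. All 6 old arrays were above all 3 middle-aged arrays, with ALO_GP replicate 1 and ALO_PP replicate 1 the highest. RT1-Bb rose by 2.01 ± 0.51 (4.01-fold; limma adjusted p = 0.0381), and by 1.61 in the value table (adjusted p = 0.0456). Tap2, a TAP subunit, read 494, 244 and 307 in ALO_GP rats and 281, 259.7 and 93.3 in ALO_PP rats, against 71.1, 72.6 and 55.04 in ALMA rats. The old arrays again did not overlap with the others, although ALO_PP replicate 3 lay close to them. Tap2 rose by 1.72 ± 0.38 (adjusted p = 0.0226; value table difference 1.24, adjusted p = 0.0146).

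Cd74 ranked the 6 old arrays in the same order as RT1-Bb. Cd74, the invariant chain that guards the class II groove, read 7073, 2037 and 2393 in ALO_GP rats and 5161, 3162 and 2403 in ALO_PP rats, against 1526, 1193 and 575 in ALMA rats. It rose by 1.69 ± 0.44 in dChip signals (limma adjusted p = 0.0408), and the value table gave 1.71 with an adjusted p of 0.0546. RT1-Db1, a second class II beta chain, rose by 2.08 ± 0.57 at an adjusted p of 0.04998 in dChip signals and was at 1.75 in the value table (adjusted p = 0.0576). The alpha chains RT1-Ba and RT1-Da differed by 1.74 ± 0.51 and 1.42 ± 0.53 without passing, although their old arrays all lay above the middle-aged ones. The probe sets of RT1-Ba and RT1-Db1 are of kinds that can also bind related transcripts. RT1-DMb, which edits the peptides of class II molecules, differed by 0.72 ± 0.22 and did not pass. B2m, the class I light chain, read 6449 to 10198 in old rats, against 5489.7 to 7406 in middle-aged rats, with overlap. Of the antigen presentation list, 4 of 17 tested members rose (23.5%, against 10.0% of all genes), 0 fell and 13 did not pass. In both signals 2 of 17 rose and 0 fell, while 4.00% of all genes rose. All 17 differences were positive (median difference 0.52 in dChip signals and 0.52 in the value table), as were 6271 of 9885 over all genes. Without ALO_GP replicate 1 the list median was 0.32 in dChip signals, and 5 members rose, against 1156 of 9885 over all genes. With arrays scaled by quantiles 1 member rose, and the adjusted p was 0.0507 for RT1-Bb, 0.0551 for Cd74 and 0.0600 for RT1-Db1. The list's summed signal was 48764 on ALO_GP replicate 1 and 35746 on ALO_PP replicate 1, the arrays with the highest blood sums, against 22749 to 25106.5 on the other 4 old arrays and 15436 to 21089 on middle-aged arrays. The part of blood in these values was not tested. Of the 18 members on the array 1 was below the filter, the class II activator Ciita. RT1-Bb, Tap2, Cd74 and RT1-Db1 did not pass without 1 or more of ALO_GP replicate 3, ALO_PP replicates 1, 2 and 3 and ALMA replicates 1, 2 and 3 (limma adjusted p from 0.0501 to 0.179). RT1-DMb did pass without ALO_GP replicate 1 (limma adjusted p = 0.0436).

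The start regions of some of these genes show the letters that class II and interferon-responsive promoters are known for, and 4 windows that hold such letters are printed. RT1-Bb, RT1-Db1, RT1-Da and Tap2 were all higher on each old array than on any middle-aged one. So were Cd74, whose window holds none of these letters, and RT1-Ba, whose window has a Y box match and no X box match, and neither is printed. In class II genes an X box and a Y box, bound by the RFX complex and NF-Y, recruit Ciita. In class I pathway genes an interferon-stimulated response element binds STAT and IRF factors. The windows run from 250 bases before to 50 bases after the start in RefSeq (rat build GRCr8), RT1-Bb at chr20:4604069-4604368, strand -, RT1-Db1 at chr20:4560113-4560412, strand -, RT1-Da at chr20:4515165-4515464, strand + and Tap2 at chr20:4652247-4652546, strand -. Capitals mark matches, on either strand, to CTGATTGG (Y box), to CTAGCAAC, any base and GATG (X box), or to GAAA, any 2 bases and GAAA (interferon element), and these matches do not overlap.
RT1-Bb: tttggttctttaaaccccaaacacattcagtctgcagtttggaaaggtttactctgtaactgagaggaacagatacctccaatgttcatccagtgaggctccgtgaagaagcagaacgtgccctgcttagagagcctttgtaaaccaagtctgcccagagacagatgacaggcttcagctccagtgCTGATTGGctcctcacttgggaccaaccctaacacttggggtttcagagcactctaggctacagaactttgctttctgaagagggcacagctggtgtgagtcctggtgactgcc
RT1-Db1: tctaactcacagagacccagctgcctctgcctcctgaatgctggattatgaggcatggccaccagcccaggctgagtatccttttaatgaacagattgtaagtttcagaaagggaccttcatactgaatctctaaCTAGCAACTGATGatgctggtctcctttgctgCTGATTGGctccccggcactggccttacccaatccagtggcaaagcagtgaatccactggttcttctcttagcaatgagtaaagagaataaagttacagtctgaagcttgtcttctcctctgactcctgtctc
RT1-Da: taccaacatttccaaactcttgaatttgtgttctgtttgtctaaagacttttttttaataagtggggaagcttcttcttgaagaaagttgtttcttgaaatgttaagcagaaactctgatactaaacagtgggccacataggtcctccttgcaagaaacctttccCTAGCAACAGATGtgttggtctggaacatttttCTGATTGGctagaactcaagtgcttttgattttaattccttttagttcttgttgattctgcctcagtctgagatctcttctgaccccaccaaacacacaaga
Tap2: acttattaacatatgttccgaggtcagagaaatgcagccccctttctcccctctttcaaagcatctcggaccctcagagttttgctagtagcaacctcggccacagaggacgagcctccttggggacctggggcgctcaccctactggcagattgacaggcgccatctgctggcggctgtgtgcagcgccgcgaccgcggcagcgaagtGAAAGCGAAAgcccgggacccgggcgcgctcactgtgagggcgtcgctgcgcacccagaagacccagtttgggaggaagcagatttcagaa
The Y box letters begin 64, 83 and 52 bases before the start in RT1-Bb, RT1-Db1 and RT1-Da, and the X box letters 115 and 85 bases before it in RT1-Db1 and RT1-Da. Tap2 holds the interferon letters 41 bases before its start. Of all 33469 promoter windows in the table, 3.5% hold the Y box letters, 0.012% (4 windows) the X box letters and 3.92% the interferon letters. Of the 15 antigen presentation genes with a window, 5 hold the Y box letters, 2 the X box letters and 7 the interferon letters. The arrays do not read promoter binding, and a match is a description of the sequence.

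Microglia, the resident macrophages of the brain, were represented by 24 tested markers. In this list 4 of 24 tested members rose (16.7%, against 10.0% of all genes), 0 fell and 20 did not pass. In both signals 2 of 24 rose and 0 fell, while 4.00% of all genes rose. The median difference was 0.51 in dChip signals and 0.43 in the value table. Tyrobp, the signalling adaptor of Trem2, read 2194, 1116 and 1288 in ALO_GP rats and 1988, 1271 and 1312 in ALO_PP rats, against 555, 849 and 661 in ALMA rats. The groups did not overlap, and Tyrobp rose by 1.11 ± 0.23 (2.15-fold; limma adjusted p = 0.0175; value table difference 0.76, adjusted p = 0.0600). Trem2, a lipid-sensing receptor, read 160.2 to 304 in old rats (median 223), against 109.5 to 150.3 in middle-aged rats (median 114) and rose by 0.78 ± 0.17 (adjusted p = 0.0200; value table difference 0.40, adjusted p = 0.0796). Tmem119, a marker of resident microglia, rose by 0.51 ± 0.11 and Csf1r, the receptor that keeps microglia alive, by 0.51 ± 0.13, both in both signals. Other identity genes did not pass: P2ry12 differed by 0.24 ± 0.15 and Cx3cr1 by 0.13 ± 0.15, both with overlap. Gpnmb, which is high in lipid-laden phagocytes, read 921 to 2223 in old rats (median 991), against 377 to 784 in middle-aged rats (median 458) without overlap, and its difference of 1.27 ± 0.37 had an adjusted p of 0.0581. Cd68, a lysosomal protein of phagocytes, read 682, 206 and 182 in ALO_GP rats and 267, 207 and 172 in ALO_PP rats, against 152, 206 and 121 in ALMA rats, where ALO_GP replicate 1 is far above the rest. Tyrobp, Trem2, Tmem119 and Csf1r did not pass without 1 or more of ALO_GP replicate 3, ALO_PP replicates 1 and 3 and ALMA replicates 1, 2 and 3 (limma adjusted p from 0.0632 to 0.182). With arrays scaled by quantiles 3 members rose, against 575 of 9885 over all genes, and Csf1r did not pass (limma adjusted p = 0.0612). Without ALO_GP replicate 1 the list had 4 members that rose and a median of 0.38, against 1156 of 9885 and 0.06 over all genes. The summed signal was 42226 on that array and 35382 on ALO_PP replicate 1, against 26313 to 28519 on the other 4 old arrays and 21007 to 27203.5 on middle-aged arrays, and the part of the high blood sums of the same 2 arrays was not tested.

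Complement proteins tag synapses and debris for microglia, and interferon genes answer viral and self nucleic acids. For complement 1 of 10 tested members rose (10%, against 10.0% of all genes), 0 fell and 9 did not pass (median difference 0.56 in dChip signals and 0.64 in the value table, or 0.33 in dChip signals without ALO_GP replicate 1, when 2 rose). C1qa, a chain of the initiator C1q, read 5777, 3119 and 3166 in ALO_GP rats and 4112, 3224 and 2982 in ALO_PP rats, against 1883, 2534 and 1736 in ALMA rats. All old arrays were above the others, and C1qa rose by 0.83 ± 0.22 (limma adjusted p = 0.0410; value table difference 1.01, adjusted p = 0.0256), with an adjusted p of 0.0596 under quantile scaling. C1qb differed by 0.79 ± 0.28 (adjusted p = 0.114) and C3, the central component, by 0.65 ± 0.27 (adjusted p = 0.171); both passed in the value table only (0.90 and 0.87). Of the interferon list 1 of 24 tested members rose (4.17%, against 10.0% of all genes), 0 fell and 23 did not pass. The one that rose was Stat2, a transducer of type I interferon signals, which read 1203, 958 and 1032 in ALO_GP rats and 1006, 801 and 945 in ALO_PP rats, against 601, 625 and 661 in ALMA rats and rose by 0.63 ± 0.11 (adjusted p = 0.00849; value table difference 0.64, adjusted p = 0.0288). The list median was 0.37, and 0.08 without ALO_GP replicate 1. Stat2 passed without each single array. C1qa did not pass without each of ALO_GP replicates 2 and 3, ALO_PP replicates 1, 2 and 3 and ALMA replicates 1, 2 and 3 (limma adjusted p from 0.0501 to 0.163). C1qb did pass without ALO_GP replicate 1 (limma adjusted p = 0.0283).

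Among other glia, astrocyte genes rose in part and myelin genes did not pass. Among astrocyte markers 3 of 18 tested members rose (16.7%, against 10.0% of all genes), 0 fell and 15 did not pass. The median difference was 0.18 in dChip signals and 0.19 in the value table. Gfap, the filament protein of reactive astrocytes, read 11838, 11404 and 11364 in ALO_GP rats and 12183, 11858 and 11566 in ALO_PP rats, against 9401, 9307 and 9408 in ALMA rats. The groups did not overlap and each was narrow, and Gfap rose by 0.32 ± 0.05 (1.25-fold; limma adjusted p = 0.00549), while the value table gave 0.38 (adjusted p = 0.0750). Atp1b2, a glial sodium pump subunit, rose by 0.36 ± 0.08 and Ntsr2, a neurotensin receptor of astrocytes, by 0.40 ± 0.10, both in both signals. Aqp4, the water channel of astrocyte endfeet, differed by 0.22 ± 0.07 and did not pass with its brightest probe set, although 1 of its 3 probe sets did. Among oligodendrocyte and myelin markers 0 of 21 tested members passed by limma, with 2 at an unadjusted p under 0.05, and Mbp was at 0.06 ± 0.05, with overlap. Sox10, the transcription factor of the oligodendrocyte line, read 336 to 892 in old rats (median 433), against 171 to 261 in middle-aged rats (median 258) without overlap, at 1.03 ± 0.29 and an adjusted p of 0.0545. The 17 endothelial and mural, 13 meningeal, 4 choroid plexus and 3 blood markers gave 0 calls in either direction by limma in either signal, with 0, 0, 0 and 0 of them at an unadjusted dChip p under 0.05. Gfap passed without each single array. It did not pass with arrays centred on their median (limma adjusted p = 0.0536) or with ALO_GP alone against ALMA (limma adjusted p = 0.0586). Atp1b2 and Ntsr2 did not pass without 1 or more of ALO_GP replicate 3, ALO_PP replicates 1 and 3 and ALMA replicates 1, 2 and 3 (limma adjusted p from 0.0511 to 0.184). Sox10 did pass without each of ALO_GP replicate 2 and ALO_PP replicate 1 (limma adjusted p from 0.0373 to 0.0492).

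**Figure D2:**
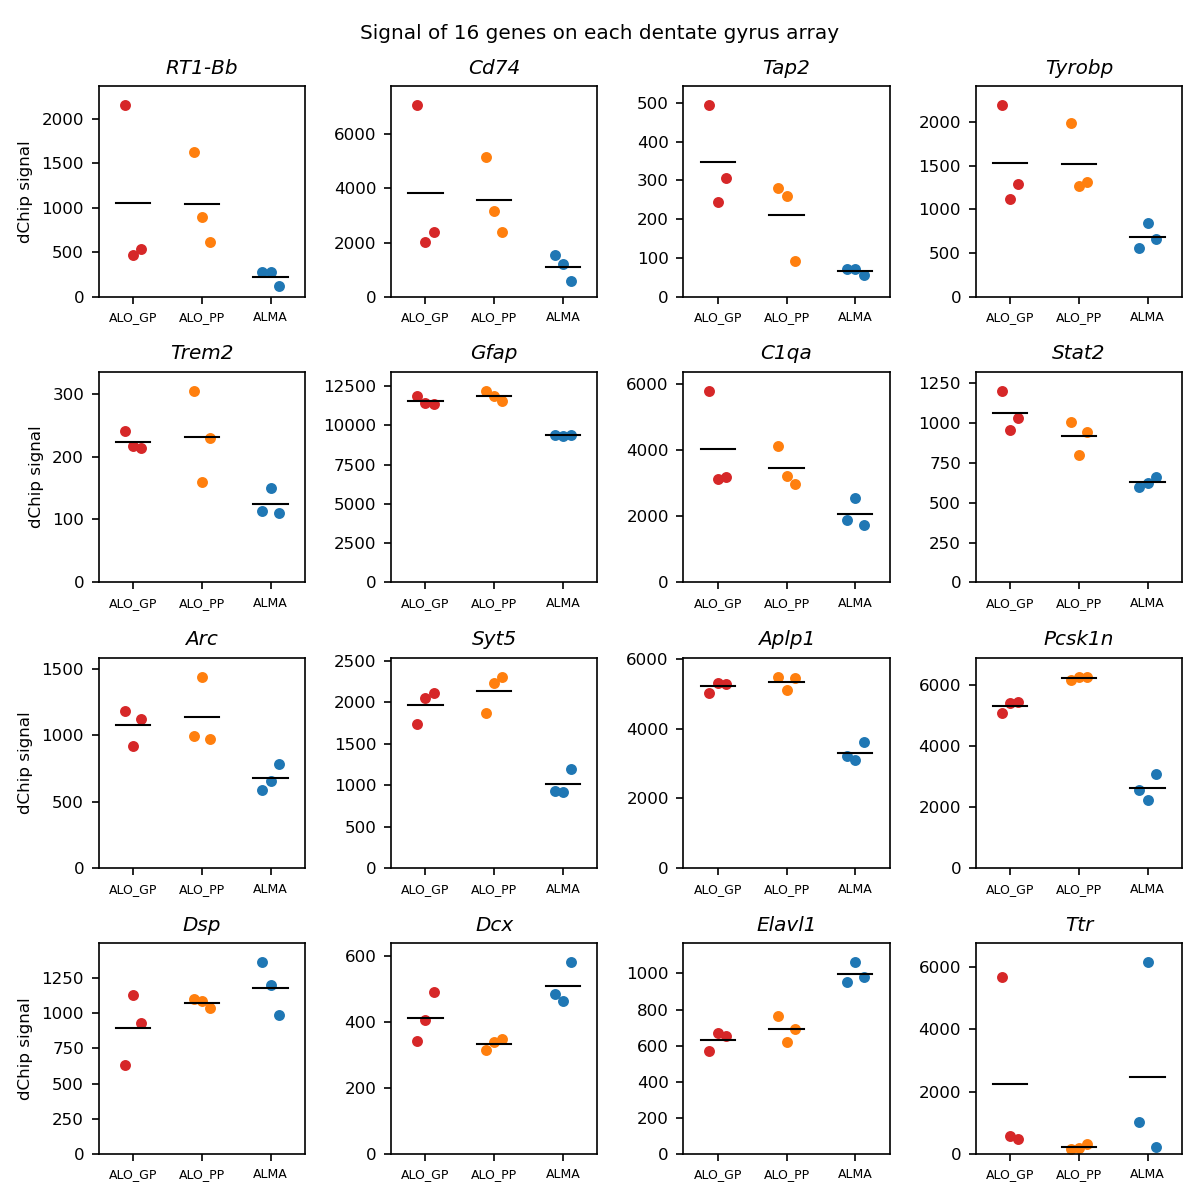
Each panel shows the dChip signal of 1 gene (linear axis from 0) on the 3 ALO_GP, 3 ALO_PP and 3 ALMA dentate gyrus arrays, with a bar at each class mean. RT1-Bb, Tap2, Tyrobp, Gfap, Syt5, Aplp1 and Pcsk1n separate old from middle-aged arrays, whereas Dsp, Dcx and Ttr overlap.

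Markers of newborn neurons and dividing cells did not pass. Of 30 on the array, 21 lay above the filter, and 0 of 21 tested members passed by limma, with 1 at an unadjusted p under 0.05 (median difference 0.01). Dcx, a microtubule protein of immature neurons, read 343, 405 and 491 in ALO_GP rats and 316, 340 and 348 in ALO_PP rats, against 484, 464 and 580.5 in ALMA rats. ALO_GP replicate 3 overlapped with the middle-aged arrays and the other 5 old arrays lay below all of them. Its difference was -0.44 ± 0.14 (limma adjusted p = 0.0745), and -0.53 in the value table (adjusted p = 0.0792). Neurod1, a transcription factor of young and mature granule cells, differed by -0.35 ± 0.16 without passing. Mki67, Top2a, Cdk1 and Eomes, which mark division and progenitors, were among the 9 members below the filter. Dcx did pass without ALO_GP replicate 3 (limma adjusted p = 0.0239).

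Immediate early genes are switched on within minutes of neuronal firing, and 2 of 22 rose (9.09%, against 10.0% of all genes). Arc, which travels to active synapses, read 1180.3, 920 and 1123 in ALO_GP rats and 997, 1439.9 and 972 in ALO_PP rats, against 588, 655 and 781 in ALMA rats. The groups did not overlap, and Arc rose by 0.69 ± 0.15 (1.62-fold; limma adjusted p = 0.0180; value table difference 0.81, adjusted p = 0.0424). Junb, an AP-1 subunit, read 721, 575 and 553 in ALO_GP rats and 723, 651 and 542 in ALO_PP rats, against 515, 326 and 375 in ALMA rats and rose by 0.63 ± 0.15 (adjusted p = 0.0298; value table difference 0.77, adjusted p = 0.00642). Fos and Egr1 did not pass, at 0.33 ± 0.28 and -0.10 ± 0.14, with overlap. The median difference over the list was close to 0. Arc and Junb did not pass without 1 or more of ALO_PP replicate 2 and ALMA replicates 1, 2 and 3 (limma adjusted p from 0.0560 to 0.124).

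Of the genes of the synapse, most did not pass and a few rose. For glutamate receptors 2 of 17 tested members rose (11.8%, against 10.0% of all genes), 0 fell and 15 did not pass. Grik5, a kainate receptor subunit, read 716, 1118 and 999 in ALO_GP rats and 986, 1147 and 1296 in ALO_PP rats, against 565, 477 and 696 in ALMA rats, and rose by 0.83 ± 0.18 (limma adjusted p = 0.0203; value table difference 0.81, adjusted p = 0.00833). Grm2, a presynaptic metabotropic receptor, rose by 0.49 ± 0.13 in dChip signals (adjusted p = 0.0495; value table adjusted p = 0.0948), and Grin1, the obligatory NMDA receptor subunit, differed by 0.31 ± 0.10 and passed in the value table only (0.57, adjusted p = 0.0414). The 11 GABA receptor genes tested gave 0 dChip calls by limma (0 at an unadjusted p under 0.05), and Gabrd, the extrasynaptic subunit of granule cells, was at 0.07 ± 0.13. Leaving out ALO_GP replicate 1 gave 4 glutamate receptor genes that rose, against 1156 of 9885 over all genes. With arrays scaled by quantiles none did, at an adjusted p of 0.0588 for Grik5 and 0.126 for Grm2. Grik5 and Grm2 did not pass without 1 or more of ALO_GP replicates 2 and 3, ALO_PP replicates 1, 2 and 3 and ALMA replicates 1, 2 and 3 (limma adjusted p from 0.0715 to 0.170). Grin1 did pass without ALO_GP replicate 1 (limma adjusted p = 0.0318).

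Syt5, a synaptotagmin, was 1 of 2 vesicle genes that rose in dChip signals. It read 1736, 2047 and 2113 in ALO_GP rats and 1874, 2235 and 2309.7 in ALO_PP rats, against 927, 914 and 1193 in ALMA rats. Every old array was above every middle-aged one, and Syt5 rose by 1.01 ± 0.12 (2.02-fold; limma adjusted p = 0.00122; value table difference 0.88, adjusted p = 0.00409). In the synaptic vesicle list 2 of 26 tested members rose (7.69%, against 10.0% of all genes), 0 fell and 24 did not pass (median difference 0.07 in dChip signals and 0.08 in the value table). The other that rose was Sncb, a synuclein of nerve endings, at 0.24 ± 0.06 (value table difference 0.26, adjusted p = 0.115), and Syp, the vesicle marker synaptophysin, differed by 0.27 ± 0.09 and did not pass. In the postsynaptic list 2 of 22 tested members rose (9.09%), 0 fell and 20 did not pass. The 2 that rose were Nrgn, a calmodulin buffer of spines, at 0.40 ± 0.10 in both signals, and the scaffold gene Shank1, at 0.21 ± 0.05, for which 1 of 3 probe sets passed. Among potassium and related channels 2 of 27 tested members rose (7.41%), 1 fell and 24 did not pass. Hcn2, a pacemaker channel read as absent on all middle-aged arrays and present on all 6 old ones, was 1.37-fold higher in dChip signals (adjusted p = 0.0292) and passed in both signals. This fold rests on middle-aged signals called absent. The inward rectifier Kcnj4 rose by 0.54 ± 0.11 in dChip signals. Kcnj3, a G protein-gated rectifier, fell by 0.54 ± 0.12 on the log2 scale there. Its value table difference was positive, at 0.05 (limma adjusted p = 0.893). Syt5 passed without each single array. Sncb, Nrgn, Shank1, Hcn2, Kcnj4 and Kcnj3 did not pass without 1 or more of ALO_GP replicates 2 and 3, ALO_PP replicates 1, 2 and 3 and ALMA replicates 1, 2 and 3 (limma adjusted p from 0.0511 to 0.190).

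Calcium signalling and peptide genes gave few calls. In the calcium list 0 of 34 tested members passed by limma, with 7 at an unadjusted p under 0.05 (median difference -0.04), and limma gave 1 higher and 1 lower in the value table. The lower one was Ppp3cb, a calcineurin subunit, at -0.19 ± 0.05 in dChip signals (adjusted p = 0.0545) and -0.32 in the value table (adjusted p = 0.0441). Calb1, the calcium buffer of mature granule cells, read 3770.3 to 5091 in old rats (median 4583), against 4882 to 5768 in middle-aged rats (median 5462), with overlap, and differed by -0.23 ± 0.10. Of 21 neuropeptide genes 1 rose (4.76%, against 10.0% of all genes). It was Vgf, a granule protein induced by activity and growth factors, at 0.50 ± 0.13 (limma adjusted p = 0.0414, with a value table difference of 0.61, adjusted p = 0.0480). Bdnf, a growth factor of granule cells, did not pass, at 0.11 ± 0.12. Without ALO_GP replicate 1, 3 of 34 calcium genes rose, against 1156 of 9885 over all genes. The calcium median was then 0.00296, against 0.06 over all genes. Vgf did not pass without each of ALO_GP replicates 1 and 3, ALO_PP replicates 1, 2 and 3 and ALMA replicates 1 and 2 (limma adjusted p from 0.0555 to 0.155).

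The list on amyloid, tau and apolipoproteins had the largest share of members that rose among the 37 lists, 6 of 20, and 4 of 20 rose and 0 fell in both signals (median difference 0.19 in dChip signals and 0.25 in the value table). The dChip median was 0.12 when ALO_GP replicate 1 was left out. Aplp1, a paralogue of the amyloid precursor protein, read 5033, 5315 and 5292 in ALO_GP rats and 5491, 5104 and 5446 in ALO_PP rats, against 3209, 3105 and 3629.8 in ALMA rats. Every old array was above every middle-aged one, and Aplp1 rose by 0.67 ± 0.07 (1.59-fold; limma adjusted p = 0.000545; value table difference 1.34, adjusted p = 0.00537). Aplp2, the other paralogue, read 1955 to 2277 in old rats (median 2041), against 1342 to 1426 in middle-aged rats (median 1417) and rose by 0.58 ± 0.07 (adjusted p = 0.00170; value table difference 0.73). Aph1a, a γ-secretase subunit, read 801 to 1068 in old rats (median 966), against 487 to 592 in middle-aged rats (median 487) and rose by 0.85 ± 0.10 (adjusted p = 0.00150; value table difference 0.65). Psen2, the catalytic subunit, rose by 0.43 ± 0.10 in both signals. Lrp1, an apolipoprotein E receptor, and Clu, apolipoprotein J, rose in dChip signals alone, at 0.51 ± 0.08 and 0.38 ± 0.07, with 1 of 2 Clu probe sets on that side of 0. App itself differed by -0.04 ± 0.05, Mapt (tau) by -0.03 ± 0.07 and Apoe by 0.10 ± 0.06, each with overlap. Abca1, a lipid exporter read by 2 probe sets of opposite sign, fell by 0.32 ± 0.09 on the log2 scale in dChip signals (adjusted p = 0.0467; value table difference -0.01, adjusted p = 0.981). Aplp1, Aplp2, Aph1a and Lrp1 passed without each single array. Psen2, Clu and Abca1 did not pass without 1 or more of ALO_GP replicates 1, 2 and 3, ALO_PP replicates 2 and 3 and ALMA replicates 1, 2 and 3 (limma adjusted p from 0.0515 to 0.175).

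Among genes of the mitochondrial chain that makes ATP, 19.1% rose in dChip signals, against 10.0% of all genes, and fewer did in both signals. In the oxidative phosphorylation list 13 of 68 tested members rose, 1 fell and 54 did not pass, and 4 of 68 rose and 0 fell in both signals (median difference 0.08 in dChip signals and 0.01 in the value table). Ndufv3, a complex I subunit, read 1391 to 1624 in old rats (median 1518), against 960.1 to 1163 in middle-aged rats (median 1036) and rose by 0.52 ± 0.08 (limma adjusted p = 0.00383; value table difference 0.502, adjusted p = 0.0102). Cox7b, of complex IV, rose by 0.39 ± 0.06 in both signals. Ndufb8 passed as well (adjusted p = 0.00146), with 868 to 993 in old rats, against 599.7 to 652 in middle-aged rats, but it was called present on 0 of 9 DG arrays and its value-table readings overlapped. The one that fell, Ndufa7 (2137 to 2782 in old rats, against 3486 to 6122 in middle-aged rats), was higher by the other signal without passing (0.28, adjusted p = 0.0702). For glycolysis 3 of 18 tested members rose (16.7%, against 10.0% of all genes), 0 fell and 15 did not pass. Those that rose were Pfkl, a phosphofructokinase, by 0.67 ± 0.13 and Gpi by 0.28 ± 0.06 in both signals, and Tpi1 by 0.21 ± 0.05 in dChip signals. Ndufv3, Cox7b, Ndufb8 and Ndufa7 passed without each single array. Pfkl, Gpi and Tpi1 did not pass without 1 or more of ALO_GP replicates 2 and 3, ALO_PP replicates 2 and 3 and ALMA replicates 1, 2 and 3 (limma adjusted p from 0.0512 to 0.141).

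Antioxidant and detoxification genes had 37 of 39 positive differences, against 6271 of 9885 over all genes. In the list 8 of 39 tested members rose (20.5%, against 10.0% of all genes), 1 fell and 30 did not pass. In both signals 3 of 39 rose and 0 fell, while 4.00% of all genes rose. The median difference was 0.23 in dChip signals and 0.17 in the value table. Sod3, the extracellular superoxide dismutase, read 300.4, 167 and 210 in ALO_GP rats and 152, 178 and 190.3 in ALO_PP rats, against 73.8, 99.1 and 80.2 in ALMA rats. All old arrays were above the others, and Sod3 rose by 1.08 ± 0.18 (2.11-fold; limma adjusted p = 0.00752; value table difference 0.69, adjusted p = 0.0297). Hmox2, the constitutive haem oxygenase, read 1469 to 1610.3 in old rats (median 1517), against 1082 to 1165 in middle-aged rats (median 1113) and rose by 0.45 ± 0.06 (adjusted p = 0.00206; value table difference 0.34). Gpx4, which reduces lipid peroxides, rose by 0.30 ± 0.06 in both signals, and Gstm1, Prdx2 and Sod2 rose in dChip signals by 0.41, 0.25 and 0.23. Gclc, the first enzyme of glutathione synthesis, fell by 0.20 ± 0.06 on the log2 scale in dChip signals (adjusted p = 0.0487; value table difference -0.26, adjusted p = 0.102). Sod3 and Hmox2 passed without each single array. Gpx4, Gstm1, Prdx2, Sod2 and Gclc did not pass without 1 or more of ALO_GP replicates 2 and 3, ALO_PP replicates 1, 2 and 3 and ALMA replicates 1, 2 and 3 (limma adjusted p from 0.0584 to 0.184).

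Ribosomal and proteasome genes rose at shares close to the 10.0% of all genes, and chaperone and lysosome genes at 14.3% and 12.5%. For cytosolic ribosomal proteins 6 of 65 tested members rose, 0 fell and 59 did not pass, and 1 in both signals, Rpl28, at 0.29 ± 0.07. For the proteasome 3 of 31 tested members rose, 0 fell and 28 did not pass, with 0 in both signals (limma). Among chaperones 4 of 28 tested members rose, 0 fell and 24 did not pass. Stip1, which links HSP70 to HSP90, read 3678 to 3893 in old rats (median 3796), against 2769 to 2990.2 in middle-aged rats (median 2969) and rose by 0.38 ± 0.05 (limma adjusted p = 0.00273; value table difference 0.42). Pdia3, a folding enzyme of the endoplasmic reticulum, rose by 0.47 ± 0.10 in both signals, and Hsp90ab1 and Fkbp4 rose in dChip signals by 0.38 and 0.73. In the lysosome list 4 of 32 tested members rose, 0 fell and 28 did not pass (median difference 0.24 in dChip signals and 0.16 in the value table). Psap, the precursor of the saposins, read 6065 to 6418 in old rats (median 6289), against 4699 to 5006 in middle-aged rats (median 4981), without overlap, and rose by 0.36 ± 0.05 (adjusted p = 0.00344) and by 1.09 in the value table (adjusted p = 0.000823). Ctsf, a cathepsin, rose by 0.50 ± 0.10 in both signals, and Ctsd, another cathepsin, rose in dChip signals by 0.43. Stip1 and Psap passed without each single array. Rpl28, Pdia3, Hsp90ab1, Fkbp4, Ctsf and Ctsd did not pass without 1 or more of ALO_GP replicates 1 and 3, ALO_PP replicates 1, 2 and 3 and ALMA replicates 1, 2 and 3 (limma adjusted p from 0.0522 to 0.171).

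Stress hormone and clock genes held single genes with clear differences. Ddit4, a glucocorticoid-induced brake on mTORC1, read 2542, 2649.8 and 2577 in ALO_GP rats and 2181, 2244 and 2272 in ALO_PP rats, against 1502, 1809.7 and 1437 in ALMA rats. The groups did not overlap, and Ddit4 rose by 0.61 ± 0.10 (limma adjusted p = 0.00578) and by 1.502 in the value table (adjusted p = 0.00265). It was the 1 of 19 glucocorticoid-responsive genes that passed (5.26%, against 10.0% of all genes), and the receptor Nr3c1 was at -0.02 ± 0.06. Among clock genes 2 of 16 tested members rose (12.5%), 1 fell and 13 did not pass. Dbp, a clock output factor, read 1462 to 1824 in old rats (median 1705), against 1187 to 1359 in middle-aged rats (median 1279) and rose by 0.39 ± 0.08 in both signals. Nr1d1 and Nr1d2, the REV-ERB repressors, went in opposite directions in dChip signals, with Nr1d1 higher by 0.66 ± 0.17 (adjusted p = 0.0375) and Nr1d2 lower by 0.44 ± 0.07 on the log2 scale (adjusted p = 0.00606). The value table called neither (0.19 and -0.30). The hour at which animals were killed was not stated in the labels. Ddit4 and Nr1d2 passed without each single array. Dbp and Nr1d1 did not pass without 1 or more of ALO_GP replicates 1, 2 and 3, ALO_PP replicates 1 and 3 and ALMA replicates 1, 2 and 3 (limma adjusted p from 0.0507 to 0.170).

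Cholesterol synthesis genes gave 0 of 24 calls in dChip signals by limma (7 at an unadjusted p under 0.05) and 1 lower in the value table. In the growth factor list 2 of 27 rose in dChip signals (7.41%, against 10.0% of all genes) and 0 in both. Igf2r was at 0.37 ± 0.09 (1 of 2 probe sets on that side of 0) and Igf1r, which passed in the value table only, at 0.33 ± 0.09. Of 23 extracellular matrix and perineuronal net genes 1 rose (4.35%, against 10.0% of all genes), the basement membrane collagen Col4a2, at 0.44 ± 0.09 (limma adjusted p = 0.0181). Of 7 hilar mossy cell markers 1 rose (14.3%). It was Ap2s1, at 0.26 ± 0.06 (limma adjusted p = 0.0322), a clathrin adaptor subunit that is not restricted to these cells. With arrays scaled by quantiles 575 of all 9885 genes rose, and none did in the growth factor, neuropeptide, extracellular matrix, hilar mossy cell, complement and potassium channel lists, while 1 rose in each of the immediate early, postsynaptic and proteasome lists. Igf2r, Col4a2 and Ap2s1 did not pass without 1 or more of ALO_GP replicates 2 and 3, ALO_PP replicates 2 and 3 and ALMA replicates 1, 2 and 3 (limma adjusted p from 0.0557 to 0.157). Igf1r did pass without ALO_PP replicate 1 (limma adjusted p = 0.0174).

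**Figure D3:**
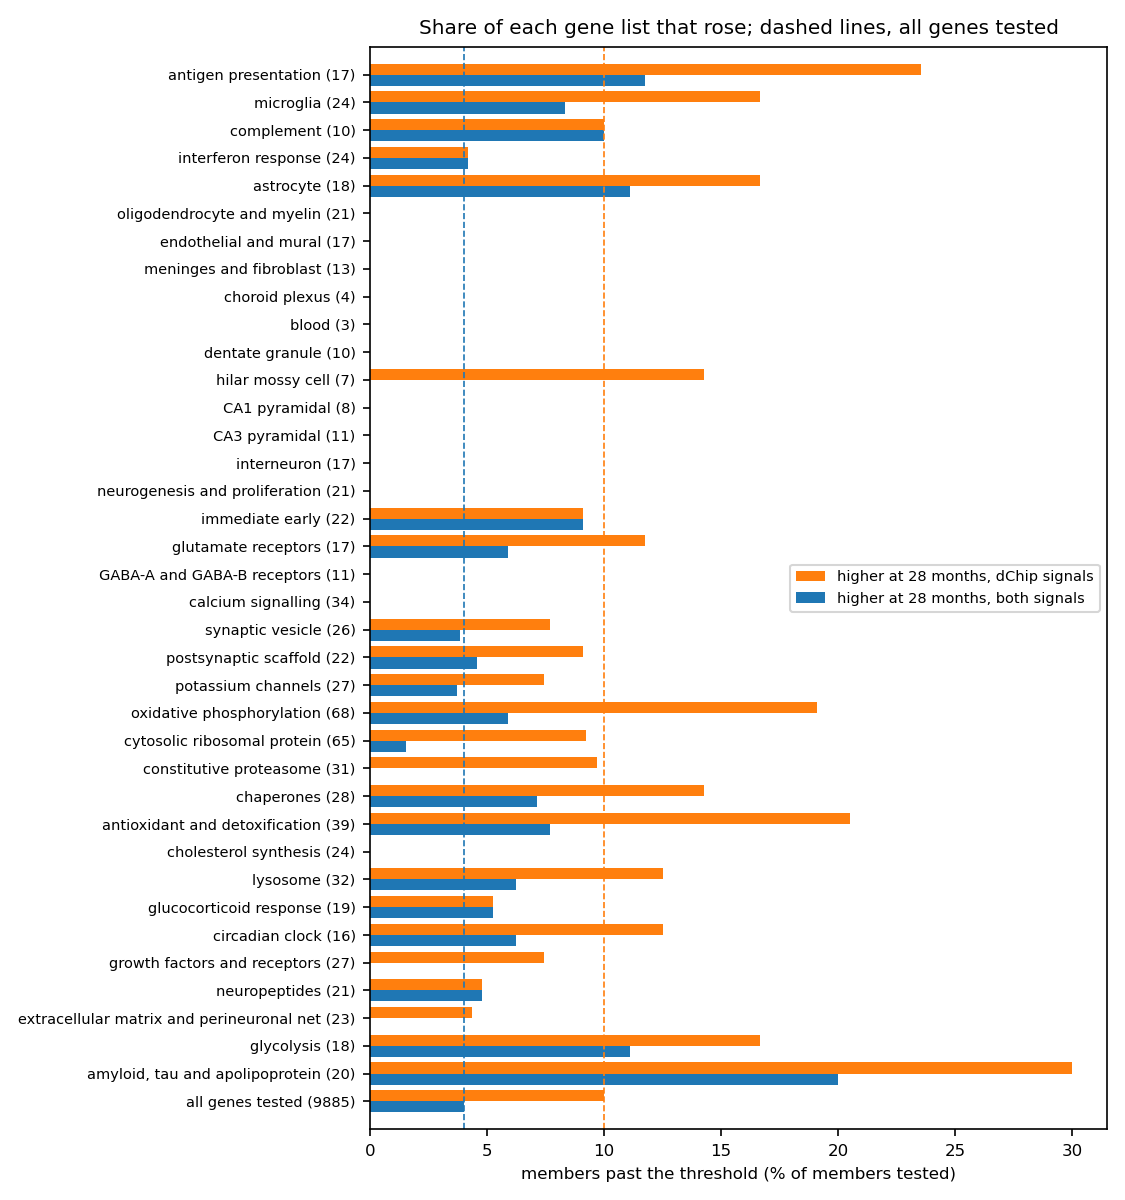
Bars give the share of tested members (number in brackets) of each of 37 gene lists, and of all genes tested, that rose at 28 months in dChip signals (orange) and in both signals (blue); dashed lines mark the shares over all genes, 10.0% and 4.00%. The amyloid, tau and apolipoprotein list has the longest bars, and 13 lists have none in dChip signals.

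Increases were ranked by the smaller of the 2 signals' differences, among genes that rose in both signals. A ranked gene also had no overlap of arrays in either signal and present calls on at least 4 old arrays. The 10 largest were RT1-Bb and Tap2, given above, and 8 genes outside the lists. Cd74 and RT1-Db1, which missed the threshold in the value table, were therefore not ranked, although their differences were large. Eml2, a microtubule-associated protein, read 829, 437 and 843 in ALO_GP rats and 724, 595 and 219 in ALO_PP rats, against 101, 83.97 and 78.6 in ALMA rats. It was called present on 5 of 6 old arrays and on 0 of 3 middle-aged arrays, so its fold rests on middle-aged signals called absent. Eml2 rose by 2.47 in dChip signals (5.53-fold; limma adjusted p = 0.00489) and by 1.61 in the value table (adjusted p = 0.00638). Prrc2a, a protein that binds methylated RNA, read 884, 776 and 1197 in ALO_GP rats and 886, 952 and 879.5 in ALO_PP rats, against 295, 279.9 and 425 in ALMA rats. It was present on 6 old arrays and no middle-aged one, so the same limit holds. Prrc2a rose by 1.45 in dChip signals (2.72-fold; adjusted p = 0.000861) and by 1.70 in the value table (adjusted p = 0.0005004). Both genes kept old and middle-aged arrays apart in both signals.

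Erf, a repressor of ETS target genes, read 437, 568 and 617 in ALO_GP rats and 525, 423 and 369 in ALO_PP rats, against 161, 139.5 and 163 in ALMA rats. It rose by 1.55 ± 0.15 (2.93-fold; limma adjusted p = 0.000604; value table difference 1.17, adjusted p = 0.00165), with no overlap. Pcsk1n, which encodes the proSAAS inhibitor of prohormone convertase 1, read 5076, 5391 and 5430.1 in ALO_GP rats and 6159, 6266 and 6262 in ALO_PP rats, against 2565, 2233 and 3071 in ALMA rats. It rose by 1.14 ± 0.11 (adjusted p = 0.000566; value table difference 1.22), and its 9 values made 3 separate bands, ALO_PP above ALO_GP above ALMA. Cd82, a tetraspanin, read 239.8 to 454 in old rats (median 306), against 66.8 to 101 in middle-aged rats (median 92.2) and rose by 1.69 ± 0.20 (adjusted p = 0.00160; value table difference 1.18). Metrn, a secreted factor of glial and neurite growth, read 1235 to 1988 in old rats (median 1463), against 469.5 to 625 in middle-aged rats (median 562) and rose by 1.44 ± 0.16 (adjusted p = 0.00102; value table difference 1.25), although only 1 of 3 middle-aged arrays called it present. Ubl5, a ubiquitin-like modifier, read 2846 to 4374 in old rats (median 3660), against 1297 to 1633 in middle-aged rats (median 1409) and rose by 1.30 ± 0.15 (adjusted p = 0.00111; value table difference 1.26). Mapre3, a microtubule plus-end protein, read 387 to 676 in old rats (median 596), against 132 to 275 in middle-aged rats (median 199.8) and rose by 1.43 ± 0.22 (adjusted p = 0.00539; value table difference 1.27). The Ubl5 and Mapre3 probe sets are of kinds that can bind related transcripts. Eml2, Prrc2a, Erf, Pcsk1n, Cd82, Metrn, Ubl5 and Mapre3 passed without each single array.

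Decreases shared by both signals were few, and the 10 largest by the same ranking (present on at least 2 middle-aged arrays) had dChip differences of -0.58 to -0.32. Elavl1, the RNA-stabilising protein HuR, read 570.4, 673 and 656 in ALO_GP rats and 764, 618 and 692 in ALO_PP rats, against 951, 1061 and 979 in ALMA rats. All old arrays were below all others, and Elavl1 fell by 0.58 ± 0.09 on the log2 scale (limma adjusted p = 0.00501; value table difference -0.58, adjusted p = 0.004995), while 1 of its other 2 probe sets had the opposite sign. Mbtd1, a reader of methylated histone, read 558 to 726 in old rats (median 669.5), against 888 to 963 in middle-aged rats (median 902) and fell by 0.47 ± 0.08 on the log2 scale (adjusted p = 0.00820). Nup58, a nuclear pore protein, fell by 0.46 ± 0.11 on the log2 scale, and Thumpd1, needed for tRNA acetylation, by 0.38 ± 0.08 on the log2 scale. Dr1, a repressor of the TATA-binding protein, fell by 0.35 ± 0.08 on the log2 scale, Gtf3c4, of the RNA polymerase III factor TFIIIC, by 0.33 ± 0.08 on the log2 scale, and Tdg, a DNA glycosylase, by 0.33 ± 0.09 on the log2 scale. Znhit6, which helps assemble small nucleolar RNPs, fell by 0.34 ± 0.07 on the log2 scale, Dcun1d4, of the NEDD8 pathway, by 0.34 ± 0.08 on the log2 scale, and Ufl1, the UFM1 ligase, by 0.32 ± 0.09 on the log2 scale. Elavl1 passed without each single array. Mbtd1, Nup58, Thumpd1, Dr1, Gtf3c4, Tdg, Znhit6, Dcun1d4 and Ufl1 did not pass without 1 or more of ALO_GP replicates 2 and 3, ALO_PP replicates 1, 2 and 3 and ALMA replicates 1, 2 and 3 (limma adjusted p from 0.05003 to 0.183).

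Genes that rose in both signals tended to be short. Gene length, from start to end with introns in RefSeq (GRCr8), had a median of 11.95 kb over 389 of the 395 genes that rose, 32.41 kb over the 23 that fell and 23.98 kb over 9759 of all 9885 genes. In 4 groups of nearly equal size by length, 7.05% of the shortest 2440 genes rose in both signals, then 4.75%, 2.83% and 1.31% of the longest 2440. The shares that fell were 0.082%, 0.246%, 0.328% and 0.287%. The median difference of all genes in each group, short to long, was 0.14, 0.09, 0.05 and 0.01 by dChip and 0.11, 0.06, 0.02 and -0.01 by the value table. Median brightness over the 9 arrays was 9.95 (log2) for genes that rose, 11.1 for those that fell and 9.86 for all genes. The 3′ to 5′ ratio of beta-actin moved with age as given above, and its part in the relation to length was not tested.

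**Figure D4:**
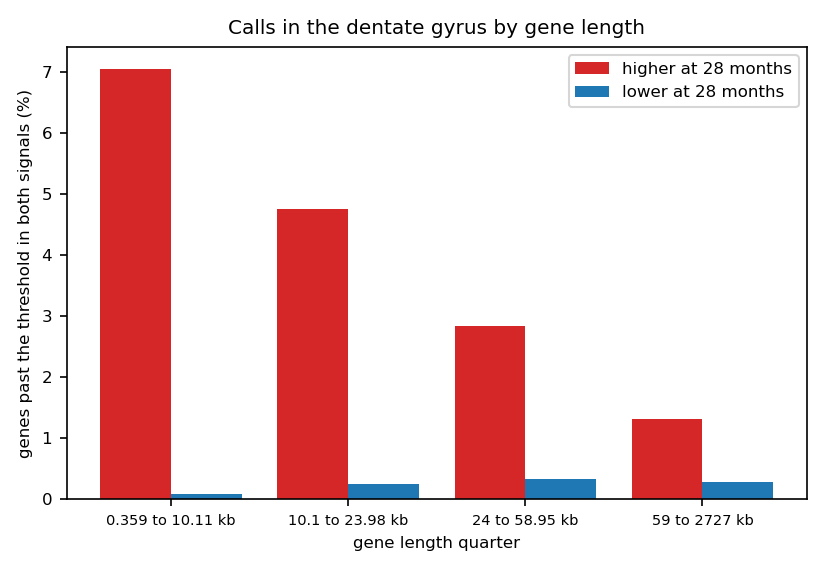
Bars give the share of genes past the threshold in both signals, higher (red) or lower (blue) at 28 months, in 4 groups of genes of nearly equal size by length (kb, introns included). The share that rose is 7.05% in the shortest group and 1.31% in the longest.

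Some large dChip differences did not pass in the value table. Ccdc65, a protein of motile cilia, read 471, 436 and 475 in ALO_GP rats and 481, 459.5 and 418 in ALO_PP rats, against 79.6, 83.8 and 84.6 in ALMA rats in dChip signals and rose by 2.26 ± 0.06 (limma adjusted p = 4.53e-07). In the value table it read 52.5 to 65.8 in old rats, against 50.03 to 62.01 in middle-aged rats, with overlap, and its difference was 0.11 (adjusted p = 0.464). Unc5cl read 66.2 to 148 in old rats, against 826 to 1045 in middle-aged rats in dChip signals, Rpia 285 to 489.7 in old rats, against 2695 to 3929 in middle-aged rats and Hmga2 492 to 1296 in old rats, against 3585 to 6629 in middle-aged rats, but each was called absent on all 9 arrays. Their value table readings were 3.97 to 18.01 in old rats, against 7.85 to 12.9 in middle-aged rats for Unc5cl, 26.4 to 47.3 in old rats, against 45.3 to 58.7 in middle-aged rats for Rpia and 0.318 to 3.56 in old rats, against 0.303 to 0.347 in middle-aged rats for Hmga2, all with overlap. These 3 had the largest dChip decreases among genes past the threshold there and not in the value table. No fold is given for probe sets called absent in both age groups.

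The age differences of the dentate gyrus were set against those of CA1 and CA3, with 27 arrays in 1 fit and the animal, as coded in the deposited headers, as a random block. The code of 1 ALMA CA3 array repeats that of another ALMA CA3 array, so it was tied to no DG animal and had a block of its own. The difference in DG minus the mean of CA1 and CA3 passed for 3 of 18625 probe sets (0.0161%; 725 at an unadjusted p under 0.05), and for 0 in the value table (707 unadjusted). Pck2, the mitochondrial PEP carboxykinase, differed by 0.49 ± 0.13 in DG, 2.84 ± 0.13 in CA1 and 1.02 ± 0.13 in CA3, and its DG minus CA1 and CA3 contrast was -1.44 ± 0.16 (limma adjusted p = 4.79e-05), while the value table gave a contrast of 0.11 (adjusted p = 0.9995). In DG it read 687, 640.3 and 670 in ALO_GP rats and 672, 605 and 585 in ALO_PP rats, against 506, 562 and 326 in ALMA rats. Tmc4, a transmembrane channel-like gene, differed by -1.39 ± 0.13 in DG, -2.71 ± 0.13 in CA1 and -2.29 ± 0.13 in CA3 (contrast 1.11 ± 0.16, limma adjusted p = 0.00174), but it was present on 1 of 9 DG arrays, and the value table gave a contrast of 0.94 (adjusted p = 0.797). The third probe set has no single gene symbol. The count was 5 without the animal of DG array ALMA replicate 2 (its DG and CA1 arrays). It was 27 without the animal of replicate 3 (its DG, CA1 and CA3 arrays).

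None of the genes named next passed the contrast between regions. RT1-Bb was at 2.00 ± 0.53 in DG, 2.75 ± 0.53 in CA1 and 1.64 ± 0.53 in CA3, Tap2 at 1.72 in DG, 1.98 in CA1 and 1.90 in CA3 and Tyrobp at 1.11 in DG, 1.31 in CA1 and 1.12 in CA3. Eml2 was at 2.47 in DG, 2.43 in CA1 and 2.42 in CA3 as fitted, Erf at 1.55 in DG, 1.66 in CA1 and 1.69 in CA3 and Pcsk1n at 1.14 in DG, 1.12 in CA1 and 1.11 in CA3. Syt5 was at 1.01 in DG, 1.21 in CA1 and 1.01 in CA3 and Aplp1 at 0.67 in DG, 0.67 in CA1 and 0.54 in CA3. The region values lay further apart for Junb (0.63 ± 0.17 in DG, 0.52 ± 0.17 in CA1 and 1.41 ± 0.17 in CA3; adjusted p of the contrast = 0.999), Hcn2 (0.46 ± 0.15 in DG, 0.12 ± 0.15 in CA1 and 0.12 ± 0.15 in CA3; adjusted p = 0.999) and Elavl1 (-0.58 ± 0.14 in DG, -0.30 ± 0.14 in CA1 and -0.23 ± 0.14 in CA3; adjusted p = 0.999). The contrast sets DG against the mean of CA1 and CA3, so its p does not test the gap between CA1 and CA3. Nor does it test DG against either of them alone. Separate contrasts of the same fit did so over all 18625 probe sets. In dChip signals 4 passed for DG against CA1 and 2 for DG against CA3 (limma). The value table gave 0 for each. Because the regions share animals, the region values are not independent.

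**Figure D5:**
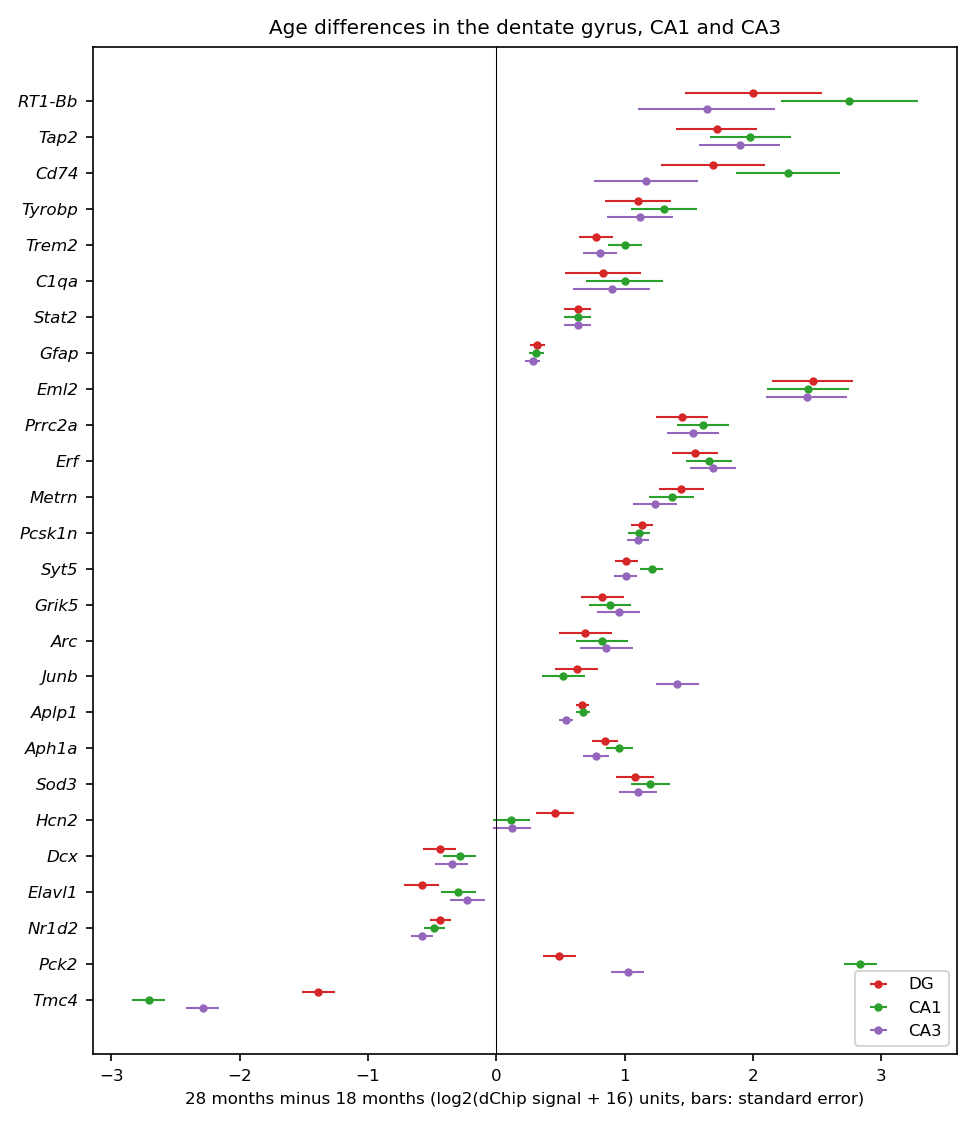
Points give the age difference (28 minus 18 months, log2 dChip units) of 26 genes in the dentate gyrus (red), CA1 (green) and CA3 (purple), with bars for the standard error. Pck2 lies at 0.49 in the dentate gyrus, 2.84 in CA1 and 1.02 in CA3 in these signals, while Pcsk1n and Eml2 have close values in all 3.

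Within the old rats, poor and good performers were compared in the same region. The difference ALO_PP minus ALO_GP (3 against 3 arrays) passed for 0 of 18625 probe sets by limma, with 1647 at an unadjusted p under 0.05 and a lowest adjusted p of 0.276, and for 0 in the value table (957 unadjusted). Pcsk1n differed by 0.23 ± 0.11 (adjusted p = 0.598), RT1-Bb by 0.24 ± 0.62 (adjusted p = 0.938) and Dcx by -0.28 ± 0.13 (adjusted p = 0.610). Set against the middle-aged rats alone, ALO_GP gave 719 probe sets past the threshold and ALO_PP 1030, a difference in counts that was not tested.

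The authors' deposited table for age in this region lists 920 probe sets, of which 22 are array controls, 686 others are listed as higher and 212 as lower. Of 869 that lay above the filter here, 817 passed in the same direction in dChip signals, and 372 did so in both signals. The list is of the same comparison in the same series, so this match is not an independent check. The direction here was opposite to the listed one for 91 of the 869 in the value table and for 0 in dChip signals. In the authors' deposited table Eml2 is listed at a fold of 6.34, Ccdc65 at 5.52, Prrc2a at 2.81, Sympk at 2.503, Gfap at 1.25 and Elavl1 at -1.51, where the minus sign marks lower in old rats.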

How the data were processed

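RNA from dissected dentate gyrus, CA1 and CA3 was hybridised to RAE 230 2.0 arrays, 1 per region and animal, per the labels' protocols. The authors deposited 2 intensity signals per probe set on a linear scale, dChip signals with present calls and a second table whose software the labels do not name. They also deposited a list of probe sets changed with age in this region, with a signed fold and a p-value. Both signals were taken as log2(signal + 16). Probe sets whose mean dChip signal over the 27 ad libitum arrays was in the lowest 40% were left out, which kept 18625.

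Old and middle-aged arrays were compared with limma 3.58.1 (R 4.3.3; lmFit and eBayes, two-sided, Benjamini-Hochberg adjustment over the 18625 probe sets, threshold 0.05). Age by region was fitted over 27 arrays with the animal as a random block (duplicateCorrelation; 1 ALMA CA3 array with a repeated animal code had a block of its own), and poor against good performers in a fit of 3 class means. Each arm has 3 or 6 animals, and the number of arrays limits the precision. Of 31099 probe sets 18798 carry 1 gene symbol, 667 several and 11577 none in the platform annotation, and 57 are controls. Promoters and lengths come from RefSeq (GRCr8). In simulated data for the age comparison, limma recovered 37 of 67 probe sets changed by 0.5 on the log2 scale, 58 of 67 changed by 1 and 64 of 66 changed by 2. The simulation changed few probe sets, in random directions, with noise independent between probe sets. The real data had more calls, mostly higher, and arrays that stood apart, so these shares may not carry over.

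The genes named are the 10 largest increases and decreases in both signals (ranked by the smaller difference, with no overlap of arrays and present on at least 4 old or 2 middle-aged arrays), up to 4 members of smallest p in each of 37 gene lists, the 3 largest increases and decreases in dChip signals alone, genes past the region contrast, and cell markers; others named were chosen after their values were seen. The genes, lists and tests were chosen with earlier results of these data known. Alternatives were other pseudocounts (1 and 64), filters, normalizations, old classes, the replicate number as a block, and leaving out each array. For the region contrast all arrays of an animal were left out together. Restricted-diet arrays were not used here, and a few genes are not reported here.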

Additional observations from a re-analysis of the deposited data

Results flagged for a closer look

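Within the 6 old dentate gyrus arrays, the gap between an extreme array and its nearest neighbour was set against the whole range, and a share above the critical value of Dixon's test for 6 samples was noted. Chance alone gives such a gap in a small share of genes.

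Most of these gaps belong to the array of ALO_GP replicate 1. It was the highest array for the fibroblast genes Dcn (gap share 0.78), Col1a2 (0.766) and Slc6a13 (0.895), for the choroid plexus gene Ttr (0.652), for the endothelial gene Cldn5 (0.639) and for the immune genes Tap1 (0.783), Psmb8 (0.631), Cd68 (0.687) and C1qc (0.74). It was the lowest array for the granule cell gene Dsp (0.661), for Sncb (0.669) and for Thumpd1 (0.693). The summed signals had the same array apart, highest for endothelial and mural markers (0.743), meningeal and fibroblast markers (0.674) and choroid plexus markers (0.667), and lowest for granule cell markers (0.688).

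Single genes stood apart on other arrays. Npy was lowest on ALO_PP replicate 1 (gap share 0.778), Tpi1 was highest on ALO_PP replicate 2 (0.711), and Col4a2 was lowest on ALO_GP replicate 3 (0.634).

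The age difference in the dentate gyrus differed from that in CA1 and CA3 for Pck2 (-1.44 on the log2 scale) and for Tmc4 (1.11), by limma's test of the difference itself in dChip signals. Neither passed in the value table, where the difference was 0.11 for Pck2 and 0.94 for Tmc4.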

How the results depend on the processing

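The dChip count of 1917 probe sets was 1223 in the value table, 719 with ALO_GP alone, 1030 with ALO_PP alone and 1043 with arrays centred on their median, and 690 to 2252 with 1 array left out. The count in both signals, 662, was 160 to 887 with 1 array left out, and 223 under median centring and 427 under quantile scaling, both alternatives chosen after seeing the data. The causes were not tested. The region contrast gave 3 probe sets, 0 in the value table and 3 to 27 with all arrays of 1 animal left out. The performance comparison gave 0 in both signals, without the filter on dim signals and without each of the 9 arrays in turn, with 1647 probe sets at an unadjusted p under 0.05.

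Deviations of animals sharing a replicate number had a mean r of 0.030 over 9 pairs (-0.39 to 0.45). The mean was -0.008 over 18 pairs of other numbers (-0.62 to 0.59). These ranges are too wide to decide whether the numbers pair animals. With the replicate number as a block, 1561 probe sets passed in dChip signals and 551 in both.

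Of 160 genes examined by name, 94 passed in dChip signals, and 57 of these passed in the value table too. Under the 19 dChip settings none of the 94 changed sign, 27 passed under every setting that tested them and 34 without each single array. Among the 27, Ndufb8, Unc5cl, Rpia, Hmga2, Tmc4 and Cutal were tested under 18 settings only. The filter that asks for present calls on at least 3 DG arrays left them out. Leaving out ALMA replicates 1, 2 and 3 in turn lost 57, 47 and 40 of the 94. Centring arrays on their median also lost genes, among them Gfap (limma adjusted p = 0.0536), Gpi (0.148), Nrgn (0.161), Sncb (0.241), Sod2 (0.259) and Tpi1 (0.268). Scaling by quantiles lost Pfkl (limma adjusted p = 0.0611), among others. In the value table Kcnj3 (0.0459), Ndufa7 (0.28), Unc5cl (0.0806) and Hmga2 (0.10) had the opposite sign. Signal over background limits the dimmest genes.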
